A study of Mus musculus with 24 samples.

Results

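MIN6 cells, a mouse insulinoma line that makes and secretes insulin, carried a plasmid for EIF2A fused to GFP (EIF2A-GFP) and received 1 µM thapsigargin for 3 h or for 1 h. The comparison of these times rests on 8 libraries of polyadenylated RNA, 4 at 3 h and 4 at 1 h, of 24 in all. They were taken by their labels, as all libraries labelled EIF2A-GFP and thapsigargin. The 4 EIF2A libraries labelled untreated, which got the vehicle DMSO by the treatment protocol and are written here as 0 h, served to say which changes were early. A further 12 libraries of cells with a GFP plasmid at 3 h, 1 h or 0 h served as the control construct. All 24 libraries thus come from transfected cells that overexpress GFP alone or fused. Replicates are numbered 1 to 4 within each group by the sample titles. The sources used here do not give the promoter or species of the EIF2A sequence, whether expression was stable or transient, or what share of cells took up the plasmid. The labels give no vehicle libraries at 1 h or 3 h, so hours of thapsigargin cannot be told apart from hours after handling. The question was which changes of the first hour had reverted by 3 h, which persisted and which began late.

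Thapsigargin inhibits the SERCA pump that fills the endoplasmic reticulum (ER) with calcium, so that calcium leaks from the ER and proteins fold poorly there. The kinase PERK then phosphorylates eIF2α, which lowers translation in general and raises that of ATF4, the transcription factor behind much of the integrated stress response (ISR). IRE1 splices Xbp1 mRNA and ATF6 and XBP1 act on genes of chaperones and degradation. Immediate early genes are transcribed within minutes of a calcium or kinase signal from factors already present, and many of their mRNAs are short-lived. EIF2A, which can bring an initiator tRNA to the ribosome, is a different protein from eIF2α, and beta cells are known for a heavy load of insulin synthesis in the ER.

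Depth was 15.9 to 16.9 M (mega) counts per library at 3 h, 14.1 to 22.1 M at 1 h and 10.5 to 18.1 M at 0 h. A level of 1 CPM (count per mega count of the library) thus stood for about 10.5 counts or more. Beta cell markers were plain, with a summed level of 52900 to 61500 CPM over 12 markers at 3 h and 73600 to 114000 CPM at 1 h. Acinar, endothelial and delta, PP and epsilon markers summed to at most 1.52 CPM at both times. Alpha cell markers, mostly Gcg and Ttr, summed to 627 to 1750 CPM at 3 h and 1270 to 2390 CPM at 1 h. Duct markers, nearly all Krt7, summed to 381 to 492 CPM at 3 h and 481 to 645 CPM at 1 h. CPM below are scaled in addition by the trimmed mean of M values (TMM), which sets aside the genes with the most extreme ratios. Eif2a, the gene on the plasmid, went against the label in 1 replicate. In CPM, it stood at 104.3, 208.9, 194.3 and 164.1 at 3 h and 96.94, 201.2, 189.0 and 178.1 at 1 h in replicates 1 to 4. Replicate 1 was the lowest at both times. The GFP library of replicate 1 held 358.1 at 3 h and 361.2 at 1 h, and the other GFP libraries 91.18 to 101.9 at 3 h and 90.24 to 94.33 at 1 h. The labels of replicate 1 are thus in doubt: EIF2A cells means cells labelled EIF2A throughout, and results that turn on it are given with and without it. Pairs of EIF2A libraries of 1 time had a chi-square per degree of freedom of 1.66 to 20.2 within replicates 2 to 4 and of 84.7 to 156 with replicate 1 (1 is counting error alone). Replicates 2 and 3 thus differed by little more than counting, at 1.66 at 3 h and 1.88 at 1 h. The labels do not say that replicates are separate cultures, and p-values measure the spread between these libraries, which may be technical.

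Between 1 h and 3 h, the ATF4 target genes, amino acid transporters and replication-dependent histone genes went up, and genes for oxidative phosphorylation, ribosomal proteins, insulin and the secretory path went down. Of 13153 genes tested, 3294 rose (25.0%) and 3264 fell (24.8%) at 3 h against 1 h. Rose and fell stand throughout for an adjusted p under 0.05 in edgeR's quasi-likelihood test with the replicate as a block, and fold changes are log2 values ± standard error (SE). By 2-fold or more, 180 rose and 54 fell. All 4 pairs moved the same way in 3043 of the genes that rose and 3046 of those that fell, and in 7659 of all 13153 tested, called or not. The 4 libraries of 3 h lay wholly above or below the 4 of 1 h in 1896 genes (14.4% of those tested), 1027 of which rose and 804 fell. With scaling by library totals alone, which moved the median of all genes from 0.02 to 0.18, 5702 rose and 1645 fell, so 77.6% of calls were upward in place of 50.2%, and small falls below are relative to the scaling used. Without replicate 1, 3793 of 13032 genes rose and 3700 fell, and without the replicate block 661 rose and 509 fell. Changes were smaller in replicate 1: the genes that rose had a median of 0.27 in that pair against 0.39, 0.39 and 0.39 in replicates 2 to 4, and those that fell had -0.23 against -0.38, -0.39 and -0.38.

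The highest and lowest changes are given among called genes that averaged 5 CPM or more in these 8 libraries and moved 1 way in all 4 pairs. The cystine transporter Slc7a11 had one of the highest. It stood at 49.8, 30.6, 30.7 and 24.2 CPM at 3 h in replicates 1 to 4, against 8.78, 5.73, 5.33 and 4.60 CPM at 1 h, and rose by 2.47 ± 0.10 (adjusted p = 1.06e-12). Every library of 3 h lay well above every library of 1 h. Atf3, a transcription factor induced by ATF4, held 113, 168, 176 and 180.4 CPM at 3 h and 25.8, 42.8, 45.9 and 42.4 CPM at 1 h, a change of 2.03 ± 0.06 (adjusted p = 7.05e-14). Trib3, a pseudokinase that feeds back on ATF4, held 239, 309, 328 and 372 CPM at 3 h and 40.3, 92.8, 96.5 and 94.1 CPM at 1 h (2.01 ± 0.11). Replicate 1 was the lowest at both times in Atf3 and Trib3, and in neither did the times overlap. Linker histone genes Hist1h1e and Hist1h1d rose by 2.45 ± 0.13 and 2.02 ± 0.09, the core histone genes Hist1h2ac, Hist1h2ah, Hist1h3i and Hist1h4a by 2.19, 1.99, 1.92 and 1.82, and the clock repressor Nr1d1 by 1.83 ± 0.12. Olfr1372-ps1 and D730045A05Rik, which averaged 1.49 and 1.91 CPM at 1 h, complete the 12 highest at 2.55 and 2.26.

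At the other end, the orphan nuclear receptor gene Nr4a1, an immediate early gene, was lowest. It stood at 549, 19.3, 23.3 and 25.8 CPM at 3 h and 593, 176, 174 and 191 CPM at 1 h in replicates 1 to 4, and fell by 2.10 (SE 0.57, adjusted p = 0.0223). The times overlap, with replicate 1 high at both: its own pair changed by -0.11, and the pairs of replicates 2 to 4 by -3.18, -2.90 and -2.88. Nr4a1 lies on chr15 from 101254269 to 101274795 (plus strand), Slc7a11 on chr3 from 49892526 to 50443614 (minus strand), Fosb on chr7 from 19302696 to 19310051 (minus strand) and Ins2 on chr7 from 142678656 to 142743381 (minus strand), by GENCODE M21 on GRCm38. The lactate exporter Slc16a3 had 74.3, 16.1, 14.7 and 22.3 CPM at 3 h against 177, 83.9, 82.6 and 103 CPM at 1 h, a change of -1.98 ± 0.23 with no overlap (adjusted p = 3.85e-04). Tuba1c, an alpha tubulin, changed by -1.45 ± 0.09, the calcium-binding protein gene S100a11 by -1.37 ± 0.17, Ndufa4, a subunit of respiratory complex IV, by -1.26 ± 0.12 and Tmem27, a beta cell membrane protein gene, by -1.22 ± 0.12. Midn, which encodes a ubiquitin-like protein that takes immediate early proteins to the proteasome, changed by -1.19 ± 0.29, with -0.10, -1.53, -1.78 and -1.61 in the pairs of replicates 1 to 4. The remaining genes of the 12 lowest were Sertad3 (-1.32), C2cd4a (-1.31), Tsku (-1.22), C1qa (-1.19) and Ttc28 (-1.18). C1qa is a macrophage gene in other settings, and the 5 macrophage markers summed to 8.57 to 49.7 CPM at 3 h and 26.0 to 80.6 CPM at 1 h, nearly all of it C1qa. Csf1r, C1qb, Adgre1 and Ptprc reached at most 3.414 CPM. Whether C1qa came from macrophages, and the part of any such cells in other changes, was not tested. In bulk RNA, fewer cells of a type and less RNA per cell cannot be told apart.

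**Figure D1:**
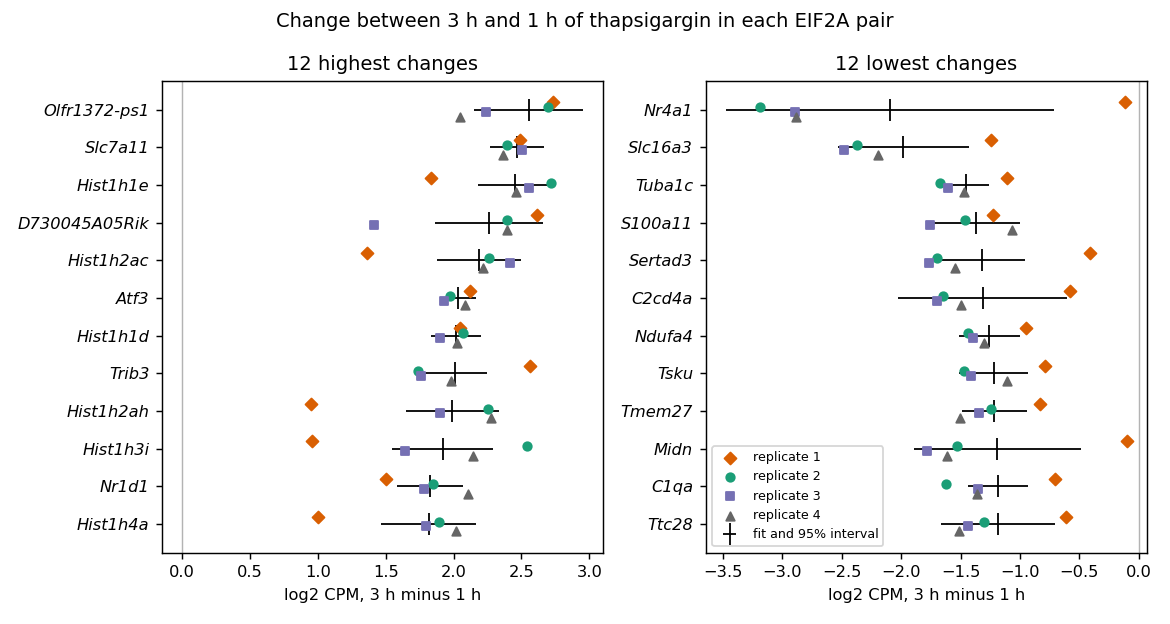
Change in log2 CPM at 3 h minus 1 h (x axis) for the 12 genes with the highest and the 12 with the lowest fold change among called genes that averaged 5 CPM or more in these 8 libraries and moved 1 way in all 4 pairs, 1 point per replicate pair, with the fitted fold change and its 95% interval as a black cross. In Nr4a1 and Midn the pair of replicate 1 lay near 0, at -0.11 and -0.10.

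Each gene was then placed by its calls in 3 contrasts of the same fit. At 1 h against 0 h, 2753 genes rose (20.9%) and 2800 fell (21.3%), and at 3 h against 0 h 4301 rose (32.7%) and 4296 fell (32.7%). A gene reverted if it was called at 1 h against 0 h and then called the opposite way at 3 h against 1 h, and continued if both calls ran the same way. It held if 1 h and 3 h were each called the same way against 0 h, with no call between them. It was late if it had no call at 1 h against 0 h and then moved the same way at 3 h against both. Most early changes went on or stayed. Of the 2753 early risers, 1285 continued (46.7%), 913 held (33.2%) and 443 reverted (16.1%), and 112 were called in neither later contrast (4.07%). Of the 2800 early fallers, 1265 continued (45.2%), 1062 held (37.9%), 273 reverted (9.75%) and 200 were called in neither (7.14%). Late changes were as frequent, in 1437 genes upward and 1360 downward.

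**Figure D2:**
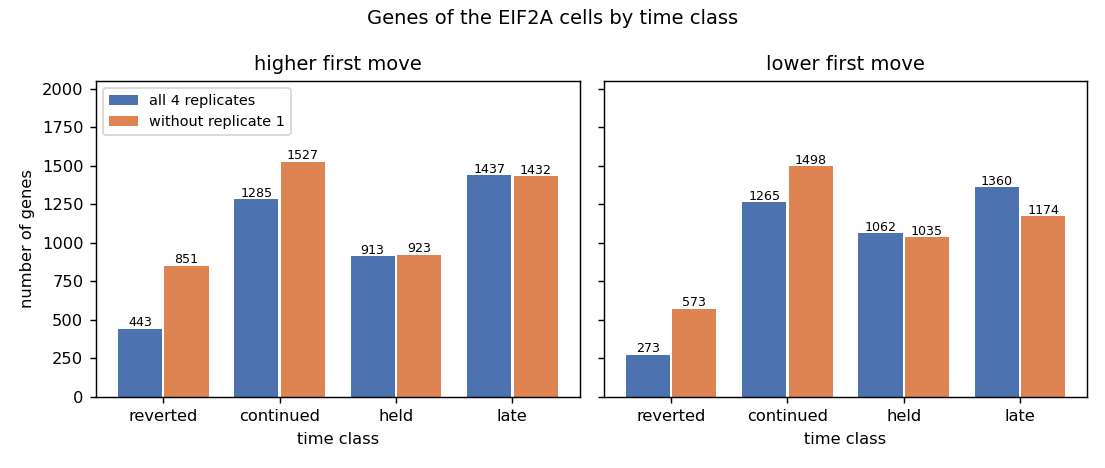
Number of genes per time class (y axis) with a higher (left) or lower (right) first move, from all 4 replicates and without replicate 1. Reverted genes number 851 and 573 without replicate 1, against 443 and 273 with all replicates, and late genes number 1432 and 1174, against 1437 and 1360.

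Without replicate 1, reverted genes numbered 851 upward first and 573 downward first. Of these, 437 and 263 genes stood in the same class with all replicates (98.6% and 96.7% of the class with all replicates that was tested in both, 51.4% and 45.9% of the class without replicate 1). Of the 443 that rose first and reverted, 278 were back at a level not called against 0 h, 89 were still higher and 76 had gone below it. Of the 273 that fell first, 209 were not called against 0 h, 28 were still lower and 36 were above it. A held gene need not be flat, since a missed threshold is no proof of equality. The change at 3 h minus 1 h had a 95% interval within 0.5 on the log2 scale on either side in 865 of 913 held risers and 1007 of 1062 held fallers. Likewise 1177 of 1437 late risers and 1226 of 1360 late fallers had such an interval for 1 h minus 0 h. The contrasts 1 h against 0 h and 3 h against 1 h share the 1 h libraries, so that chance in these alone pushes a gene toward reversal and away from continuation, and the class counts are a description. With library totals, 226 early risers and 682 early fallers reverted, so which direction reverted more often depends on the scaling.

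A list of early genes that shares no library with the EIF2A contrast came from the GFP cells. Among 3425 genes that rose at 1 h against 0 h in GFP cells and were tested in EIF2A cells, 1665 rose further at 3 h against 1 h in EIF2A cells (48.6%) and 443 fell (12.9%), with a median of 0.19. Among 3294 that fell early in GFP cells, 1611 fell further (48.9%) and 247 rose (7.5%), with a median of -0.18. Among the other 6434 genes 1382 rose (21.5%) and 1210 fell (18.8%). Continuation of the early direction was thus the commonest outcome also by this list, while 38.5% of the early risers and 43.6% of the early fallers were not called. Without replicate 1 of either construct, 665 of the GFP early risers fell and 455 of the GFP early fallers rose. With library totals 229 of the early risers fell, and among the early fallers 854 fell and 645 rose. Reverted genes of the EIF2A cells were in the same class in GFP cells in 278 of 443 cases (62.8%, where 4.09% of all genes tested in GFP cells were in it) for risers and 113 of 273 (41.4%, against 1.85%) for fallers.

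**Figure D3:**
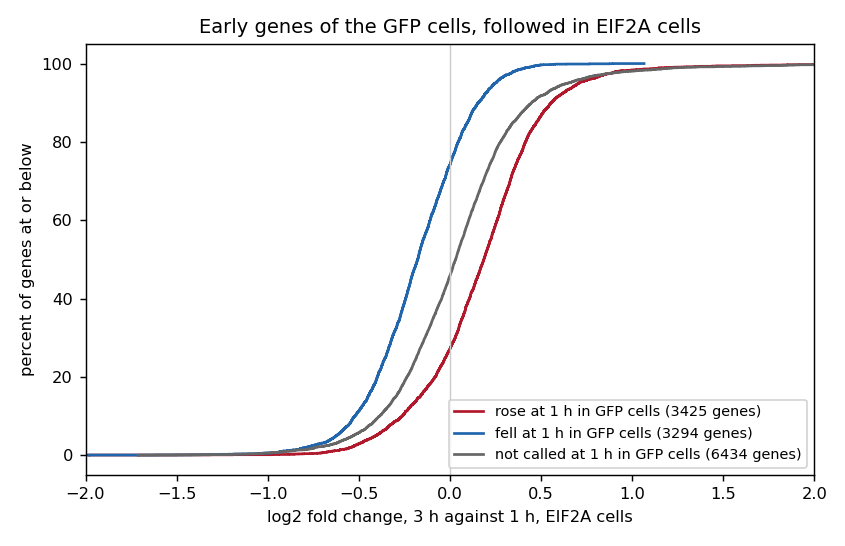
Cumulative percent of genes (y axis) by log2 fold change at 3 h against 1 h in EIF2A cells (x axis), for genes that rose (red), fell (blue) or were not called (grey) at 1 h against 0 h in GFP cells. The medians lie at 0.19 for early risers and -0.18 for early fallers, and 12.9% and 7.5% of these lists were called in the opposite direction.

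Immediate early genes rose in the first hour, and some of them turned back. Of 44 measured, 29 rose and 0 fell at 1 h against 0 h, with a median of 0.64 against -0.02 over all genes. At 3 h against 1 h 10 rose, 8 fell and the median was -0.09 (all genes 0.02, of which 25.0% rose and 24.8% fell; with library totals 13 rose, 6 fell and the median was 0.07). By class, 6 reverted, 12 held and 7 continued upward. Fosb, a subunit of the AP-1 factor, showed the return. It had 6.13, 5.58, 2.88 and 2.51 CPM at 0 h, 31.2, 14.0, 13.9 and 11.7 CPM at 1 h and 18.8, 5.53, 6.54 and 6.84 CPM at 3 h in replicates 1 to 4. It fell by 0.94 (SE 0.15, adjusted p = 8.55e-05) at 3 h against 1 h and was still 1.08 above 0 h (adjusted p = 8.82e-05). Zfp36, whose protein destabilises AU-rich mRNAs, had 18.2, 13.9, 13.2 and 13.9 CPM at 0 h, 34.7, 21.7, 23.0 and 19.7 CPM at 1 h and 22.2, 13.1, 12.8 and 12.9 CPM at 3 h. Its change of -0.70 ± 0.09 (adjusted p = 2.74e-06) left the libraries of replicates 2 to 4 lower at 3 h than at 1 h and also lower than at 0 h, and that of replicate 1 above its own 0 h level. The other 4 that reverted were Nr4a1, Egr4 (-0.66), Ier3 (-0.83) and Trib1 (-0.48), named after their values were seen.

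Many of the other immediate early genes stayed up or went higher. Ier2, a nuclear immediate early protein gene, had 50.2, 45.8, 49.8 and 48.8 CPM at 0 h, 130.5, 116, 116 and 130.1 CPM at 1 h and 148, 111, 107 and 132 CPM at 3 h. Its levels at 1 h and 3 h overlapped, with a change of 0.01 ± 0.06 between 1 h and 3 h (95% interval -0.12 to 0.14). The small GTPase gene Gem, induced by calcium, held likewise at -0.03 ± 0.08 after an early rise of 1.48. Jun, the other subunit type of AP-1, continued. It had 68.6, 135, 142 and 129 CPM at 0 h, 161, 361, 366 and 396 CPM at 1 h and 291, 622, 625 and 701 CPM at 3 h. Each replicate stood higher at 3 h than at 1 h, by 0.81 ± 0.06 in the fit (adjusted p = 9.54e-09). The growth regulators Myc, Klf10 and Klf11 rose further by 1.06 ± 0.09, 1.14 ± 0.12 and 0.91 ± 0.09, and Arc, a synaptic immediate early gene, by 0.49 ± 0.09. Fos and Egr1, the best known of the class, were not called at 3 h against 1 h over all 4 replicates, with -0.39 ± 0.44 and -0.67 ± 0.41 (adjusted p = 0.507 and 0.227). Without replicate 1 they were at -0.50 and -0.67 (adjusted p = 0.00184 and 7.13e-08). Replicate 1 stood apart in both, Fos having 93.8 CPM at 1 h against 25.1 CPM at 0 h there, and 16.4, 13.9 and 14.8 CPM at 1 h against 19.5, 14.5 and 13.1 CPM at 0 h in replicates 2 to 4. The list's counts change without it: 11 of the genes rose and 23 fell at 3 h against 1 h, and 18 reverted in place of 6. Among these 18 was Sik1, a kinase that restrains CREB, at 86.8, 5.53, 3.92 and 4.50 CPM at 3 h and 79.9, 30.5, 30.3 and 27.7 CPM at 1 h. It changed by -1.50 ± 0.54 with all replicates (adjusted p = 0.0607) and -2.67 without replicate 1 (adjusted p = 2.86e-15; chosen after its values were seen).

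Feedback inhibitors of MAP kinase signalling also rose early. Of 14 measured 11 rose at 1 h and 1 fell (median 0.56), and at 3 h against 1 h 3 rose and 5 fell (25.0% and 24.8% over all genes; median -0.03, 0.13 with library totals), with 4 reverted and 4 held. Dusp10, a phosphatase of JNK and p38, had 64.7, 61.6, 55.5 and 57.6 CPM at 0 h, 101.1, 104, 104 and 105 CPM at 1 h and 76.1, 60.7, 61.1 and 61.1 CPM at 3 h. Every library of 3 h was below every library of 1 h (-0.68 ± 0.06, adjusted p = 1.74e-07), and the level at 3 h was not called against 0 h (adjusted p = 0.153). Spry4, an inhibitor of receptor tyrosine kinase signalling, changed by -0.98 ± 0.18 (adjusted p = 4.54e-04). Dusp16 and Dusp8, phosphatases of JNK, instead continued upward by 1.54 ± 0.08 and 0.93 ± 0.06.

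**Figure D4:**
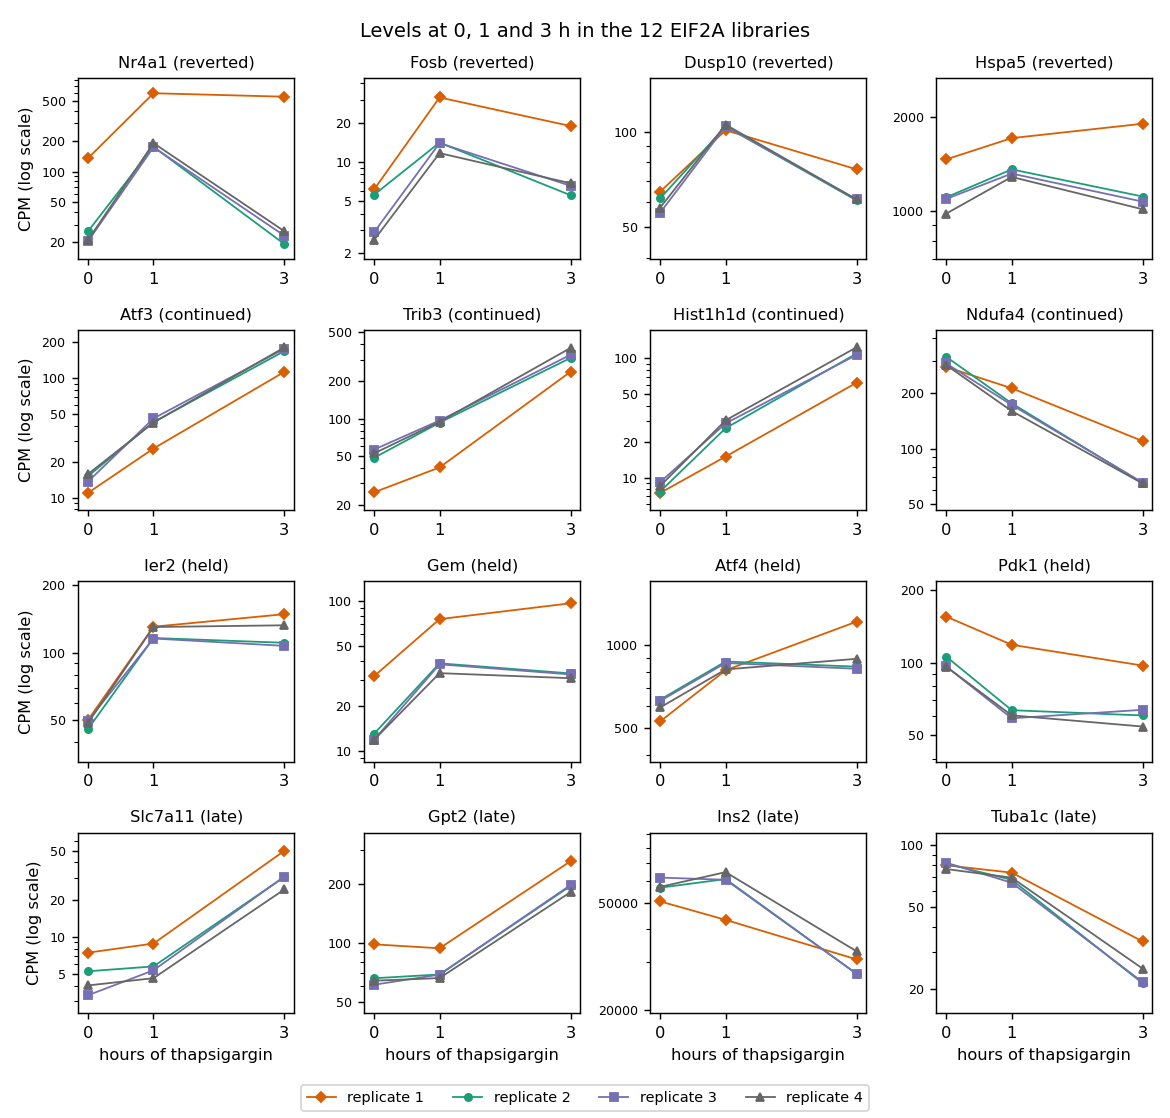
Level in CPM (y axis, log scale) at 0, 1 and 3 h of thapsigargin (x axis, to scale) of 4 genes per time class, 1 line per replicate of the EIF2A cells. Nr4a1, Fosb and Dusp10 turn down after 1 h while Atf3, Trib3 and Hist1h1d climb on, Ier2 and Gem stay level, and Slc7a11 and Gpt2 move mainly after 1 h. Replicate 1 is apart from the other lines in several panels, as in Nr4a1, Hspa5 and Atf4.

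ER chaperones and folding enzymes rose early and came down. Of 29 measured, 14 rose and 2 fell at 1 h against 0 h (median 0.16), while at 3 h against 1 h 1 rose and 24 fell, with a median of -0.31 (2 and 14, median -0.15, with library totals). The riser was Xbp1, the transcription factor spliced by IRE1 (0.38 ± 0.06, adjusted p = 3.02e-05). In time classes 11 reverted and 9 were late fallers, and 20 reverted without replicate 1. Without the replicate block 0 of the 29 rose and 4 fell at 3 h against 1 h. Hspa5, which encodes the chaperone BiP, had 1465, 1105, 1092 and 979 CPM at 0 h, 1715, 1360.1, 1318 and 1286 CPM at 1 h and 1909, 1112, 1070.3 and 1011 CPM at 3 h in replicates 1 to 4. It rose by 0.30 ± 0.07 in the first hour and then changed by -0.19 ± 0.07 (adjusted p = 0.0326), down in replicates 2 to 4 and up in replicate 1. Without that replicate the change was -0.32 (adjusted p = 5.44e-08). Pdia6, a disulfide isomerase, had 958, 577, 561 and 580.4 CPM at 0 h, 1215, 880.4, 867 and 902 CPM at 1 h and 1116, 629, 618 and 652 CPM at 3 h. It fell by 0.39 (SE 0.06, adjusted p = 4.98e-05; named after its values were seen). Among late fallers the ER cyclophilin Ppib changed by -0.75 ± 0.07, Fkbp2, another prolyl isomerase gene, by -0.46 ± 0.06 and Erp29 by -0.45 ± 0.07.

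The other ER lists had no general early rise, and not all of them fell. Of 33 genes of translocation, signal peptidase and glycosylation, 0 rose and 24 fell at 3 h against 1 h (median -0.26; 3 and 15, median -0.09, with library totals), after 9 rose and 12 fell at 1 h. The channel subunits Sec61b and Sec61g changed by -0.55 ± 0.07 and -0.57 ± 0.06 and the oligosaccharyltransferase subunit Dad1 by -0.61 ± 0.06. Of 27 COPII and COPI genes 3 rose and 12 fell (median -0.12), the retrieval receptors Kdelr1 and Kdelr2 by 0.44 and 0.52. With library totals 10 of the 27 rose and 8 fell (median 0.05). ER-associated degradation gave 7 up and 7 down of 25, near the shares over all genes (25.0% and 24.8%), with a median of -0.05 (12 and 3, median 0.11, with library totals). Herpud1, its membrane scaffold, rose by 0.68 ± 0.13 and the mannose-trimming enzyme Edem1 changed by -0.47 ± 0.06. Of 17 ER stress sensors and eIF2 kinases 8 rose and 3 fell, with Ern1, the gene of IRE1, at 0.76 ± 0.12 and Atf6 at 0.44 ± 0.07. Bloc1s1, an mRNA that IRE1 cleaves, had 12.01, 26.3, 26.3 and 33.9 CPM at 3 h and 18.0, 35.2, 34.3 and 43.9 CPM at 1 h. Each replicate was lower at 3 h, with a late fall of 0.42 (SE 0.10, adjusted p = 0.00235), and all 3 decay substrates tested fell, with Galnt10 at -0.24 and Hgsnat at -0.31. With library totals 1 of the 3 fell (median -0.15), and without the replicate block 0 fell. Of 19 ER calcium pumps and channels 1 rose and 8 fell (median -0.14), and with library totals 6 rose and 5 fell (median 0.02). Atp2a3, a target pump of thapsigargin, changed by -0.61 ± 0.07 and the calmodulin genes Calm2 and Calm3 by -0.51 and -0.66, all as continuations of an early fall.

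Most ISR genes continued upward or began late, and those that had moved early and upward did not turn back in this list. Of 29 measured ATF4 and CHOP targets, 25 rose and 0 fell at 3 h against 1 h, with a median of 1.07 against 0.02 over all genes (27 and 0 with library totals). At 1 h 14 had risen (median 0.22). In time classes 13 continued, 10 were late, 1 held and 2 fell first and then rose (Atf5 and Ndrg1, named after their values were seen). The transcription factor Atf4 was the held gene. Its mRNA had 529, 634, 627 and 594 CPM at 0 h, 811, 872, 861 and 816 CPM at 1 h and 1215, 835, 821 and 892 CPM at 3 h. Replicate 1 alone went well above its 1 h level, and the fit gave a change of 0.16 ± 0.10 between 1 h and 3 h (95% interval -0.07 to 0.38). Ddit3, which encodes CHOP, had 261, 325, 336 and 387 CPM at 3 h and 102, 245, 253 and 269.5 CPM at 1 h. It rose by 0.69 ± 0.18 (adjusted p = 0.0149), with 1.36, 0.41, 0.41 and 0.52 in the 4 pairs, so the rise was larger in replicate 1 than in the other pairs. Chac1, which degrades glutathione, rose by 1.46 ± 0.08, Sesn2, a stress-induced inhibitor of mTORC1, by 1.44 ± 0.06, and Ppp1r15a, the phosphatase subunit that reverses eIF2α phosphorylation, by 1.14 ± 0.07. The hormone gene Adm2, outside this list and named by its time class, continued by 1.55 ± 0.07.

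Gpt2, an alanine transaminase, had 98.4, 65.9, 61.0 and 64.0 CPM at 0 h, 93.9, 68.9, 68.8 and 66.1 CPM at 1 h and 262, 196, 198 and 182 CPM at 3 h. The first hour gave a change of 0.05 ± 0.06 and the next period 1.50 ± 0.06 (adjusted p = 9.29e-13). Jdp2, a repressor of AP-1, had 8.35, 9.90, 8.16 and 9.03 CPM at 0 h, 8.06, 9.61, 11.2 and 10.6 CPM at 1 h and 29.1, 32.2, 30.6 and 39.6 CPM at 3 h (1.74 ± 0.09). The hormone gene Fgf21 was low throughout, at 3.78, 2.65, 3.18 and 5.55 CPM at 3 h against 1.41, 0.750, 1.48 and 0.453 CPM at 1 h (1.88 ± 0.30, adjusted p = 5.93e-05). In all 3 genes each library of 3 h was above each of 1 h. Eif4ebp1, an inhibitor of cap-dependent translation, rose late by 1.21 ± 0.05 and Mthfd2, a mitochondrial folate enzyme, by 0.85 ± 0.05.

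The promoters of 4 ISR genes hold the letters of a CARE (TGATGNAA), the element that ATF4 binds with a partner, and are shown because these genes continued (Atf3, Trib3) or began late (Fgf21, Jdp2). Zfp36 is shown as an immediate early gene that reverted with a CArG box, the element of serum response factor. Pdia6 is shown as a chaperone gene that reverted with an ER stress response element (ERSE, CCAAT and CCACG with 9 bases between), the element of ATF6 and XBP1; Pdia6 was chosen after its values were seen. Each run is 200 bases of the RefSeq promoter table (GRCm38.p6), 5′ to 3′ on the gene's strand, up to the base before the start site, or for Trib3 up to base 21 after it, with the motif in capitals. They lie at chr1:191183334-191183533 (minus strand), chr2:152344039-152344238 (minus), chr7:45615491-45615690 (minus), chr12:85599216-85599415 (plus), chr7:28379229-28379428 (minus) and chr12:17266389-17266588 (plus).
Atf3: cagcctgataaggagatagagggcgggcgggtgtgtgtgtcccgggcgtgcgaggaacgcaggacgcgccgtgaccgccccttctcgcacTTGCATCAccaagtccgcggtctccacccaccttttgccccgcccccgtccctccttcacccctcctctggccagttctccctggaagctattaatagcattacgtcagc
Trib3: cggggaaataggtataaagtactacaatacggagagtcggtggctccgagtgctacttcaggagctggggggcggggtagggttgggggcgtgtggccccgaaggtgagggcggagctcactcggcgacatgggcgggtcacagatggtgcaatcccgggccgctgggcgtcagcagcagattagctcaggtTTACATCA
Fgf21: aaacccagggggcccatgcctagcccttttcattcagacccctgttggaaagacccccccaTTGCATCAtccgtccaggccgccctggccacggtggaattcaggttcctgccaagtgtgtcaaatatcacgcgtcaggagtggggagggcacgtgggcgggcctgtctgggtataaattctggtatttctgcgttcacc
Jdp2: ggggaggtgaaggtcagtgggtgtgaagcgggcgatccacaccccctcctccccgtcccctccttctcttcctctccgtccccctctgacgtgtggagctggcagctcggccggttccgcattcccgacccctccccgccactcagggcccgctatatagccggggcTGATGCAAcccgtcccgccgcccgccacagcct
Zfp36: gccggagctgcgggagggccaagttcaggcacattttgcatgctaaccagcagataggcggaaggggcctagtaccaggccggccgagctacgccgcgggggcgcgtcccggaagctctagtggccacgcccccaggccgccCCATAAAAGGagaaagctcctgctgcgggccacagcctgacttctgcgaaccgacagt
Pdia6: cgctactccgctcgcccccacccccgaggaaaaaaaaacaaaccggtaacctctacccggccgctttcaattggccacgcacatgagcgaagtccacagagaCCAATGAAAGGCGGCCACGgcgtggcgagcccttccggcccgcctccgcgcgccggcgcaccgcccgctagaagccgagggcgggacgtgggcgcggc
Both strands were searched from 250 bases before to 50 after the start, so the CARE letters of Atf3, Trib3 and Fgf21 appear as their reverse complement. Counts are of genes with the motif in at least 1 promoter, out of the genes that have a promoter in that source. A CARE stood in 9 of 24 ISR genes (37.5%) and 5 of 12 tRNA synthetase genes (41.7%), against 270 of 10025 over all genes tested (2.69%). Among time classes it stood in 43 of 1007 continued risers (4.27%), 42 of 1076 late risers (3.90%) and 5 of 352 reverted risers (1.42%). An ERSE stood in 7 of 23 chaperone genes (30.4%, against 0.170% over all genes). A CRE (TGACGTCA, which CREB binds) stood in 4 of 34 immediate early genes (11.8%, against 3.82%) and a CArG box in 3 (8.82%, against 1.66%). An AP-1 site (TGANTCA) stood in 33 of 352 reverted risers (9.38%, against 5.80% over all genes). The ISR list was made of known ATF4 and CHOP targets, and chaperone genes are known targets of ATF6 and XBP1. A high share of CARE or ERSE in these lists is thus no finding of these data. A match is letters in a window, not a bound site.

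Genes of amino acid supply moved mainly after 1 h. Of 13 amino acid transporters 10 rose and 2 fell at 3 h against 1 h (median 0.88), and 8 of these were late; at 1 h the list had a median of -0.06, with 1 up and 3 down. The neutral amino acid transporters Slc1a4 and Slc7a5 rose by 1.35 ± 0.07 and 0.88 ± 0.06. Slc7a1, which carries arginine and lysine, first dipped by 0.17 and then rose by 1.16 ± 0.05 (adjusted p = 8.58e-12). Of 17 genes of amino acid and one-carbon synthesis 14 rose and 2 fell (median 0.77), with Shmt2 of the mitochondrial serine path at 0.99 ± 0.08 and Aldh18a1 of proline synthesis at 0.90 ± 0.05. Cbs, which makes cystathionine, was among the genes that fell (named after its values were seen). Transfer RNA synthetases were earlier: 17 of 20 rose at 1 h (median 0.35), 13 rose and 2 fell at 3 h against 1 h (median 0.27), and 12 continued. Tars, Cars and Nars, which charge tRNAs with threonine, cysteine and asparagine, continued by 0.76 ± 0.05, 0.74 ± 0.06 and 0.67 ± 0.05. Iars rose late by 0.92 ± 0.07. The mitochondrial enzyme gene Iars2, outside this list and named by its time class, held at -0.07 ± 0.07 after an early rise of 1.03.

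Replication-dependent histone genes rose at 3 h in nearly every case. Of 47 tested, 45 rose and 0 fell at 3 h against 1 h (median 1.46), 16 of them after a rise at 1 h and 29 as late risers; at 1 h the median was 0.47. Hist1h1c, another linker histone gene, had 505, 818, 849 and 1079.6 CPM at 3 h and 184, 289.5, 294 and 331 CPM at 1 h, with no overlap (1.55 ± 0.07, adjusted p = 1.51e-11). Most histone mRNAs carry no polyA tail and several genes are near copies, so polyA libraries hold them in part only and single members are uncertain. Of 25 S phase genes 16 rose and 0 fell (median 0.24), the origin licensing gene Cdc6 by 0.68 ± 0.06, the replication initiator Mcm10 by 0.65 ± 0.07 and Slbp, whose protein binds the histone mRNA stem-loop, by 0.52 ± 0.06. Of 25 mitosis and G2/M genes 0 rose and 16 fell (median -0.20; 4 and 7, median -0.04, with library totals), and 8 of them had risen at 1 h. The ubiquitin enzyme gene Ube2c changed by -0.49 ± 0.06 and the kinetochore gene Cenpf by -0.53 ± 0.07. The cyclin F gene Ccnf, outside this list and named by its time class, changed by -0.86 ± 0.07.

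Several further lists rose between 1 h and 3 h in the fit with the replicate block, where 25.0% of all genes rose and 24.8% fell. Without the block, 6 of 17 circadian clock genes and 3 of 15 NF-kB targets rose, against 661 of all 13153 genes. In that fit 2 of 9 small nucleolar RNA host genes and 2 of 26 ribosome biogenesis genes rose. No gene of these lists fell in it. Of 17 circadian clock genes 12 rose and 0 fell (median 0.46), after 6 rose and 3 fell at 1 h. Nr1d1, a clock repressor, had 34.1, 41.8, 42.0 and 48.4 CPM at 3 h and 11.97, 11.5, 12.1 and 11.1 CPM at 1 h, with every library of 3 h above every library of 1 h. Arntl, which encodes the activator BMAL1 and is repressed by Nr1d1's product in other settings, rose as well, by 1.10 ± 0.10, and so did Cry2 (0.68 ± 0.06) and Nfil3 (1.27 ± 0.06). Of 15 NF-kB targets 11 rose and 0 fell (median 0.41), with the subunit gene Relb at 1.14 ± 0.11 and the feedback inhibitors Tnfaip3 and Nfkbia at 1.22 ± 0.14 and 0.62 ± 0.06. Small nucleolar RNA host genes, whose spliced RNAs are often unstable, rose in 6 of 9 cases and fell in 1. Snhg1 had 42.5, 50.6, 45.9 and 39.9 CPM at 0 h, 84.9, 129, 134 and 100.6 CPM at 1 h and 181, 245, 256 and 194 CPM at 3 h. Snhg12 and Snhg17 continued by 0.76 and 0.89. Ribosome biogenesis genes rose in 14 of 26 cases and fell in 2 (median 0.19; 23 and 0 with library totals), as with Wdr75 at 0.49 ± 0.06. Txnip, an inhibitor of thioredoxin that glucose induces, rose by 1.21 ± 0.15, with 93.2, 298, 299 and 282 CPM at 3 h and 56.3, 118, 118 and 111 CPM at 1 h, where replicate 1 at 3 h lay among the libraries of 1 h. Its relatives Arrdc4 and Arrdc3 rose by 0.76 ± 0.09 and 0.45 ± 0.08.

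Among death genes, Bbc3 and Hrk rose and Bax and Bok fell, while over all genes 25.0% rose and 24.8% fell. Of 22 genes of the BCL2 family and apoptosis 6 rose and 3 fell at 3 h against 1 h (median 0.09), and with library totals 13 rose and 2 fell (median 0.25). Of 17 p53 targets 5 rose and 4 fell (median 0.19), and with library totals 8 rose and 2 fell (median 0.36). Bbc3, which encodes the killer protein PUMA, had 37.5, 46.8, 49.6 and 59.2 CPM at 3 h and 17.4, 25.02, 23.5 and 26.0 CPM at 1 h and rose by 1.07 ± 0.07 (adjusted p = 2.72e-09) with no overlap. Hrk, a further BH3-only gene, was scarce, at 1.92, 5.02, 4.43 and 4.09 CPM at 3 h and 0.637, 1.16, 1.11 and 0.324 CPM at 1 h (2.22 ± 0.24). The pore former Bax changed by -0.34 ± 0.06 and the related Bok by -0.41 ± 0.08. Trp53inp1, a p53 target, fell first and then rose by 0.77 ± 0.12.

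Genes of oxidative phosphorylation and ribosomal protein genes fell broadly in the fit with the replicate block. Without the block, 25 of 64 and 9 of 75 fell, against 509 of all 13153 genes, with medians of -0.42 and -0.36. Of 64 nuclear genes of oxidative phosphorylation 0 rose and 61 fell at 3 h against 1 h (median -0.40; 1 and 49, median -0.24, with library totals), after 17 rose and 19 fell at 1 h. Ndufa4 had 278, 316, 290.4 and 285 CPM at 0 h, 213, 177, 173 and 160.2 CPM at 1 h and 110.1, 65.0, 65.5 and 64.8 CPM at 3 h, a continued fall that reached -1.97 ± 0.12 against 0 h. Uqcrh of complex III changed by -0.92 ± 0.08, Cox6b1 of complex IV by -0.74 ± 0.07 and Ndufb7 of complex I by -0.76 ± 0.07. Of 75 ribosomal protein genes 1 rose and 72 fell (median -0.35; 1 and 57, median -0.19, with library totals), 49 of them late, as with Rps4x at -0.47 ± 0.06 and Rpl37a at -0.49 ± 0.06. Their many pseudogene copies make single members uncertain. Of 24 glycolysis and hypoxia genes 1 rose and 17 fell (median -0.48), Slc16a3 among them, after 8 rose and 8 fell at 1 h. Of these falls, 6 were reversals of an early rise, 6 continued an early fall and 5 were late. Tpi1, Pgk1, Gapdh and Aldoa were at -0.73, -0.65, -0.64 and -0.62, Gapdh and Aldoa after an early rise of 0.30 and 0.34. Of 23 NRF2 and glutathione genes 2 rose and 18 fell (median -0.38), Slc7a11 being one of the risers and the glutathione transferase gene Gstm1 at -0.84 ± 0.09.

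The proteasome list rose at 1 h and fell at 3 h, with 19 of 31 subunits up and 1 down at 1 h (median 0.22), and 0 up and 24 down at 3 h against 1 h (median -0.25; 2 and 13, median -0.09, with library totals). In time classes 12 reverted. Over all genes, 25.0% rose and 24.8% fell at 3 h against 1 h. Psmb3 was late, at -0.48 ± 0.06. The heat shock list, mostly cytosolic but with mitochondrial chaperonin genes in it, gave 1 up and 10 down of 23 (median -0.17, and with library totals 4 up and 4 down). Hspa8, the constitutive Hsp70, had 589, 752, 756 and 772 CPM at 0 h, 821, 1130.4, 1111 and 1203 CPM at 1 h and 781, 774, 742 and 822 CPM at 3 h. This was a return in replicates 2 to 4 and a smaller change in replicate 1 (-0.44 ± 0.07, adjusted p = 7.28e-05). Cholesterol synthesis held in part: 14 of 25 genes rose at 1 h and 1 fell (median 0.29), 9 held, and 1 rose and 3 fell at 3 h against 1 h (median -0.05, 0.12 with library totals). Without replicate 1 1 rose, 14 fell and 12 reverted. Fdps, a farnesyl diphosphate synthase, reverted with all replicates, at -0.26 ± 0.08 (adjusted p = 0.00772). Autophagy and lysosome genes gave 6 up and 14 down of 29 (median -0.17, and with library totals 9 and 9, median -0.02), the cathepsins Ctsb and Ctsd reverting by -0.53 and -0.61. The cathepsin gene Ctsa, outside this list and named by its time class, reverted by -0.70. Translation initiation factors gave 7 up and 11 down of 35 (median -0.03), near the shares over all genes. With library totals they gave 16 up and 4 down (median 0.13). Eif3a was at 0.34 ± 0.05 and Eif5a at -0.36 ± 0.06.

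Beta cell genes fell late. Ins2, the main mouse insulin gene, had 50522, 56806, 61925 and 57185 CPM at 0 h, 43154, 61148, 60769 and 64883 CPM at 1 h and 30791, 27206, 27236 and 32989.6 CPM at 3 h in replicates 1 to 4. It was not called at 1 h (0.01 ± 0.10, adjusted p = 0.926) and then fell by 0.95 (SE 0.10, adjusted p = 4.55e-07), with every library of 3 h below every library of 1 h. Ins1 had 4312, 11287, 11333 and 14365 CPM at 3 h and 6111, 24318, 24803 and 28179.9 CPM at 1 h, where replicate 1 was far lower than the rest at both times, and changed by -0.93 ± 0.09. The paralogs are close in sequence, so that counts of either may include reads of the other. Of 28 identity genes 3 rose and 19 fell (median -0.35), 11 of them late and 5 after an early rise. With library totals 5 rose and 14 fell, and without the replicate block 0 rose and 5 fell. Isl1, an islet transcription factor, changed by -0.65 ± 0.08, the islet amyloid gene Iapp by -0.47 ± 0.07 and G6pc2, the islet glucose-6-phosphatase, by -0.94 ± 0.11 after an early fall of 0.60. Pdx1 changed by -0.17 ± 0.06 (adjusted p = 0.0308) and was not called against 0 h (adjusted p = 0.797). Mafa, an activator of insulin transcription, was at -0.51 ± 0.19 (adjusted p = 0.0572), with 0.13, -0.81, -0.90 and -0.60 in the 4 pairs, and at -0.76 without replicate 1 (adjusted p = 8.89e-09). Insm1, a zinc finger repressor, rose by 0.57 ± 0.06. Of 24 granule and exocytosis genes 0 rose and 20 fell (median -0.34), the granule proteins Chga and Scg2 at -0.64 ± 0.08 and -0.54 ± 0.06 and the calcium sensor Syt7 at -0.58 ± 0.07. Among markers of other cells, Gcg and Ttr also fell, by 0.56 and 0.93, and the duct marker Krt7 reverted (-0.42).

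**Figure D5:**
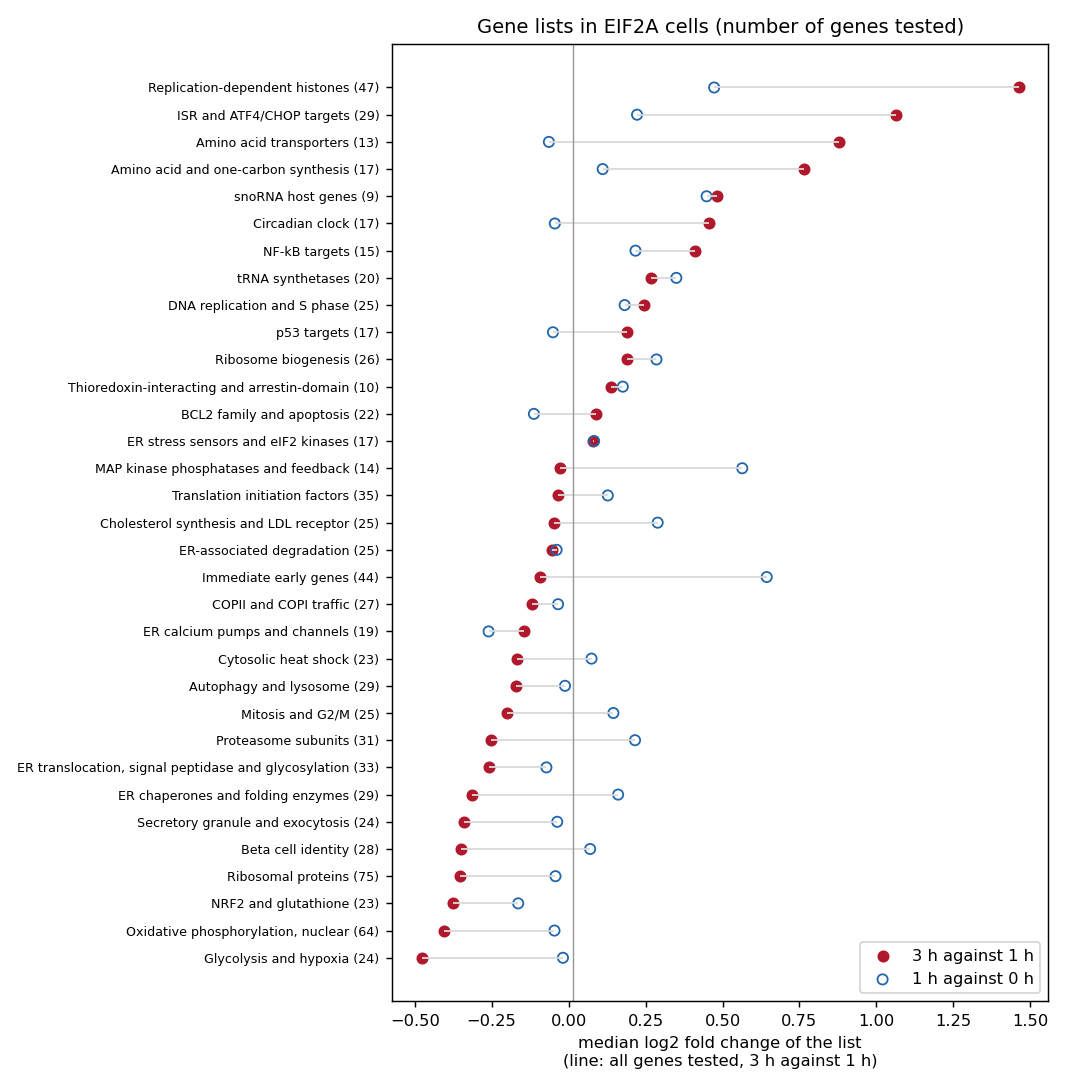
Median log2 fold change (x axis) of each gene list with at least 5 genes tested (y axis, number in brackets) in EIF2A cells, at 3 h against 1 h (filled) and at 1 h against 0 h (open), sorted by 3 h against 1 h. Histone, ISR and amino acid transporter lists lie far to the right at 3 h against 1 h (1.46, 1.07 and 0.88), immediate early genes and MAP kinase feedback lie far to the right only at 1 h against 0 h (0.64 and 0.56), and chaperone and proteasome lists change sides.

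Early fallers and other members of the classes were led by less familiar genes. Among genes that fell first and then rose were Smad6, an inhibitor of BMP signalling (1.73 ± 0.11 at 3 h against 1 h), the chloride channel protein gene Clic4 (0.75 ± 0.06) and the unannotated LOC106740 (1.16 ± 0.08). Among reverted risers were Lgals3bp, a secreted galectin-binding protein gene (-1.01 ± 0.06), and the beta tubulin gene Tubb4b (-0.61 ± 0.06). Continued fallers included the tubulin gene Tuba1b (-0.91 ± 0.07), Fam183b (-0.98 ± 0.07) and the fatty acid receptor gene Ffar3 (-1.06 ± 0.08), and Tuba1a, Rnasek and 2410015M20Rik fell late (-0.90, -0.76 and -0.72). Held fallers were the ubiquitin ligase gene March8, Pdk1, a kinase that shuts pyruvate dehydrogenase, Cmtm4 and 2610507B11Rik, which changed by 0.04, -0.11, 0.06 and -0.11 between 1 h and 3 h after early falls of 0.65, 0.62, 0.60 and 0.53. Dbn1, an actin-binding protein gene, held its early rise of 1.41 (-0.09 between 1 h and 3 h), and the deubiquitinase gene Otub2 rose late by 1.45 ± 0.07.

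Exonic length moved with the change. For the 96.2% of genes tested with a length in GENCODE M21, the median exonic length was 5166 bases among genes that rose, 3567 among those that fell and 4533 among those not called. In 5 bins of equal size in order of length, the median change at 3 h against 1 h was -0.11, -0.03, 0.02, 0.05 and 0.08. Ribosomal protein and oxidative phosphorylation genes are short as a rule, and the part of length in the falls of these lists was not tested.

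The last comparison set the change from 1 h to 3 h in EIF2A cells against that in GFP cells. By the test of the difference, 0 of 13761 genes (0% called) differed with all replicates in edgeR, with 967 at an unadjusted p under 0.05. Without replicate 1 of both constructs, 1331 of 13731 genes (9.69%) differed, 637 with a higher and 694 with a lower change in EIF2A cells. Only replicates 2 to 4, in which Eif2a follows the labels, give these calls. Of them, replicates 2 and 3 of the EIF2A cells differed by little more than counting. The labels do not say that replicates are separate cultures, so the construct cannot be told apart from the culture or cell stock that carried it. Nr4a1 was at -2.14 ± 0.09 (adjusted p = 7.84e-16) and Sik1 at -2.42 ± 0.11 (adjusted p = 7.84e-16; named after its values were seen). Midn followed at -0.97 ± 0.07 (adjusted p = 2.47e-11). Spry4 and Mafa were also lower, at -0.68 ± 0.16 and -0.66 ± 0.17 (adjusted p = 0.00596 and 0.0400). Among immediate early genes 10 differed downward and 6 upward, Klf10 at 0.64 ± 0.06 and Arc at 0.43 ± 0.10 among the higher. Txnip, Ern1 and Nr1d1 rose more in EIF2A cells, by 0.47 ± 0.05, 0.46 ± 0.09 and 0.49 ± 0.10. Among ISR targets 6 differed downward and 2 upward, Gpt2 by -0.32 ± 0.06, Eif4ebp1 by -0.29 ± 0.06 and Atf3 by 0.26 ± 0.07. Trib3 and Sesn2 were at -0.18 ± 0.07 and -0.15 ± 0.06 (adjusted p = 0.115 and 0.109). Ribosomal protein and oxidative phosphorylation genes that differed were all lower in EIF2A cells, 16 of 75 and 15 of 64. Hspa5, Slc7a11 and Hist1h1d were at -0.12 ± 0.05, 0.06 ± 0.13 and 0.00 ± 0.08 (adjusted p = 0.112, 0.851 and 0.986). In replicates 2 to 4 the constructs also differed in the share of reads in no gene feature. It was 13.3 to 14.9% at 3 h and 14.8 to 15.4% at 1 h in EIF2A libraries. In GFP libraries it was 11.1 to 12.5% at 3 h and 10.9 to 11.4% at 1 h. The part of this in the differences between constructs was not tested.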

How the data were processed

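PolyA RNA of 24 MIN6 libraries was sequenced after a stranded mRNA kit, per the labels' protocols. bcl2fastq, STAR and the build mm10 are named in the submitters' processing notes, while no source used here gives the counting program, its annotation or its strand setting. The authors deposited 1 table of raw read counts per gene, and 24 of its columns were matched to samples by the description label. Without a known strand setting, overlapping and antisense genes cannot be told apart. 2 lines that name no gene (11.1 to 17.9% and 0.518 to 0.574% of EIF2A reads) were left out.

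Genes were filtered with filterByExpr and fitted with edgeR 4.0.16 (R 4.3.3) by robust quasi-likelihood, TMM scaling, and time plus replicate as a block over the 12 EIF2A libraries, with 6 residual degrees of freedom. Calls are Benjamini-Hochberg adjusted p under 0.05. The difference between constructs came from a fit of all 24 libraries. The scripts were tested on simulated data. Same-numbered libraries of 3 h and 1 h deviated together from their group means (r = 0.902, 0.584, 0.586 and 0.686 in replicates 1 to 4, and 0.268, 0.126 and 0.395 in replicates 2 to 4 alone), so the numbers, which come from the titles, were taken to pair them. The exception is replicate 3 at 3 h, which correlated more with replicate 2 at 1 h (0.601, and 0.181 in replicates 2 to 4 alone). Libraries of unlike number within replicates 2 to 4 had r of 0.351 to 0.601, and of -0.317 to 0.181 with replicate 1 left out. The pairing of replicates 2 to 4 is thus only weakly marked, and the call counts depend on the choice to pair. The p-values measure the spread between libraries. Counting error limits genes of a few CPM most.

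Alternatives were no block, 8 or 24 libraries, other scalings, DESeq2 1.42.0, no filter, a stricter adjusted p and leaving out each replicate. Named genes are the 12 highest and 12 lowest changes with at least 5 CPM on average, the 4 most certain per time class and the 4 most certain per list, a fixed panel, and promoters by motif; those outside the rule are marked. Some genes are not reported here. The members, gene lists and rules were chosen with earlier results of these data known. Exonic lengths are from GENCODE M21 and promoters from RefSeq (GRCm38.p6). Figures were drawn with matplotlib 3.10.9.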

Additional observations from a re-analysis of the deposited data

Results flagged for a closer look

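In 35 of the 163 genes the text names, 1 of the 4 pair changes at 3 h minus 1 h lay apart from the others, by the gap to its nearest neighbour as a share of the whole range (above Dixon's 95% critical value). Chance gives about 5% of genes. The pair of replicate 1 was the one apart in 33 of them, and that replicate's Eif2a level goes against its labels; whether these are linked was not tested. Nr4a1 (ratio 0.902), Midn (0.849) and Sik1 (0.843) fell in replicates 2 to 4, while replicate 1 changed by -0.11, -0.10 and 0.12. Hspa5 (0.889) went up in replicate 1, by 0.15, and down in the other pairs. Ddit3 (0.881) rose most in replicate 1, and Txnip (0.982) and Atf5 (0.925) changed by 0.73, 1.33, 1.34 and 1.34 and by 0.10, 0.40, 0.40 and 0.38 in replicates 1 to 4.

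The other pairs of replicate 1 that stood apart had ratios of 0.983 in Aldoa, 0.854 in Arntl, 0.831 in Atf6, 0.937 in Atp2a3, 0.963 in Calm2, 0.878 in Ctsa, 0.952 in Dusp10, 0.887 in Dusp16, 0.996 in Dusp8, 0.928 in Eif5a, 0.933 in Erp29, 0.837 in Fdps and 0.929 in Hspa8. Ratios of 0.948 in Iapp, 0.836 in Iars, 0.921 in Kdelr1, 0.862 in March8, 0.944 in Pdia6, 0.933 in Ppib, 0.965 in Rpl37a, 0.836 in Rps4x, 0.843 in Sertad3, 0.885 in Snhg1, 0.932 in Tpi1, 0.835 in Ttr and 0.880 in Ube2c complete them. Nfil3 (0.842) had replicate 4 apart, with 1.21, 1.20, 1.24 and 1.43 in replicates 1 to 4, and Egr4 (0.889), a gene of few counts, had replicate 2 apart, with -0.54, -0.98, -0.59 and -0.58.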

How the results depend on the processing

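Without the replicate block, 661 genes rose and 509 fell at 3 h against 1 h, 677 were called at 1 h and 4112 at 3 h against 0 h, 16 early risers and 5 early fallers reverted, 193 continued, 424 held and 873 were late; of GFP early risers 261 rose and 15 fell, and of GFP early fallers 122 fell and 5 rose. With library totals alone, 5702 rose and 1645 fell, 226 and 682 early risers and fallers reverted, 229 GFP early risers fell, and 645 GFP early fallers rose and 854 fell. At an adjusted p under 0.01, 240 and 97 reverted and 1554 continued. With no filter, 7 genes differed between constructs in place of 0. Leaving out 1 replicate in turn gave 2370 to 3793 genes that rose, 2385 to 3700 that fell, 3601 to 6666 called at 1 h and 7411 to 9030 at 3 h against 0 h. It gave 210 to 851 early risers and 67 to 573 early fallers that reverted, 1487 to 3025 that continued, 1590 to 1958 that held and 2556 to 2707 late ones. GFP early risers that fell numbered 263 to 665 and those that rose 1149 to 1970, GFP early fallers that rose 81 to 455 and those that fell 1047 to 1809, and 0 to 1331 genes differed between constructs. The highest counts of reversal and of construct differences came without replicate 1, and without any of replicates 2, 3 or 4 the reverted counts were at most 229 and 122. The 8 and the 24 library fits, DESeq2 size factors and the DESeq2 test moved no count by over 1.5 times where they were run; the cause of these shifts was not tested. Of the 163 genes named, none changed direction past the threshold, and of 149 called, 52 lost the call without the block.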
